A study of Mus musculus with 4 samples.

Results

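The liver strips nitrogen from amino acids and turns it into urea, and the enzymes described here form that route. They were 45 genes chosen by name for their function, 6 of the urea cycle and the rest for the breakdown or transamination of amino acids. Total RNA from mouse livers was read on microarrays of the type Affymetrix Mouse Gene 1.0 ST, and a probe set there combines probes from along the whole transcript. Of the 45 genes, 40 had a probe set that the platform table assigns to a single gene, out of 19938 such genes in all, and all 40 were bright enough to pass a filter on the mean level that left 11963 genes. The other members, Ass1, Gls2, Sds, Sdsl and Ahcy, had no probe set with a single symbol in the table used here and are not described.

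The study compared mice with wild type SIRT6 (WT) with mice labelled SIRT6Co/Co ;Alb-Cre (KO), which carry a conditional Sirt6 allele and a Cre recombinase under the albumin promoter, active in hepatocytes. Livers were taken at 2 and at 8 months of age. Each of the 4 groups, WT and KO at either age, is 1 array of RNA pooled from what the labels call 3 pairs of mice, so the spread between animals cannot be seen and a difference at 1 age has no test. Values are log2 units, on which a difference of 0.58 is 1.5-fold.

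In the urea cycle, carbamoyl phosphate made from ammonia is joined to ornithine, the resulting citrulline takes up a second nitrogen from aspartate, and arginine is split into urea and ornithine. Ammonia and aspartate come from other amino acids through transaminases, glutamate dehydrogenase and the pathways that open the carbon skeletons of histidine, tyrosine, tryptophan, proline, glycine, methionine, the branched-chain amino acids and lysine. These genes are expressed mainly in hepatocytes and are known to respond to glucagon, glucocorticoids and dietary protein.

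The Sirt6 probe set did not separate the genotypes. At 2 and 8 months it read 4.55 and 4.50 with the WT label and 4.54 and 4.46 with the KO label, and the exons it covers were not given here. Directions below therefore rest on the labels. All 7 measured hepatocyte markers, among them Alb, Ttr and Apob, were bright in all 4 arrays and none passed the test for genotype. The log2 of their summed level ran from 14.51 to 14.52 in the WT-labelled arrays and from 14.47 to 14.54 in the KO-labelled arrays. Nearest the threshold was Apoa1, lower by a mean of 0.23 with the KO label (limma adjusted p 0.060). Ttr was higher by a mean of 0.13 (limma adjusted p 0.30).

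More of these enzymes were lower than higher in the KO-labelled livers. In an additive limma model of genotype and age, 10 of 40 members fell, 4 rose and 26 did not pass an adjusted p of 0.05. Rose and fell are used here for what passed, with the KO-labelled arrays against the WT-labelled ones. Over all 11963 genes, 4.26% fell and 6.81% rose. Members are brighter than most genes, and among the 1994 genes above the 90th percentile of the mean level 8.32% fell and 12% rose, 20.4% in all. The members that fell were Asl and Arg1 of the urea cycle, the alanine transaminases Gpt and Gpt2, the proline enzymes Prodh and Prodh2, Afmid, Ftcd, Mat1a and Bhmt. Gldc, Kmo, Uroc1 and Ivd rose. The genotype effects ran from -0.92 for Afmid to 0.39 for Gldc, with standard errors of 0.07 to 0.11. The test has 1 residual degree of freedom per gene, weighed with all genes, and measures how far genotype and age depart from additivity, not the spread between pools. It also takes the variance of a gene from its brightness, and without that intensity trend 4 members fell (Asl, Afmid, Prodh and Gpt2) and 0 rose. Over all 11963 genes, 325 fell and 521 rose without the trend.

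**Figure D1:**
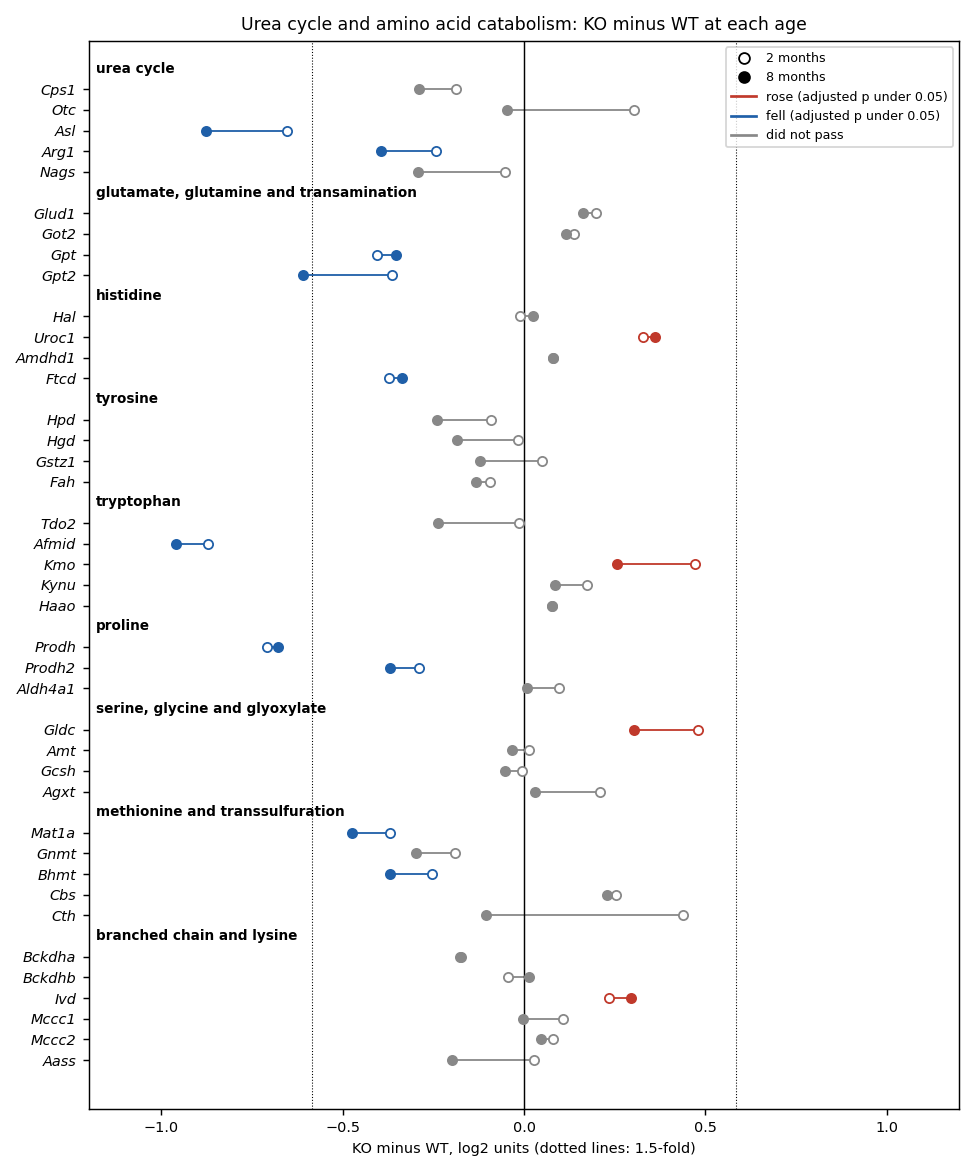
Each row is 1 measured member, grouped by pathway, with KO minus WT in log2 units at 2 months (open circle) and 8 months (filled circle) on the horizontal axis. Colours mark members that rose, fell or did not pass, and dotted lines mark 1.5-fold. Afmid, Asl and Prodh lie beyond the left line at both ages, and no member lies beyond the right one.

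By size, 3 members were at least 1.5-fold lower in the KO-labelled array at both ages and 0 were higher. Over all genes tested, 1.06% were lower and 1.78% higher at both ages. At 2 months the same 3 members, Asl, Afmid and Prodh, were lower, against 2.39% of all genes, and 0 members were higher, against 3.98%. At 8 months Gpt2 joined them, which made 4 lower members against 1.93% of all genes, and 0 were higher, against 2.41%. The median over the members was -0.01 at 2 months and -0.11 at 8 months, beside 0.01 and 0.00 over all genes tested, and the value at 2 months ran from -0.10 to -0.01 over the scalings tried. Both KO-labelled arrays lay below both WT-labelled arrays for 18 members, a pattern seen in 25.7% of all genes, and above them for 12 members, seen in 29.1%.

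In the urea cycle, 2 of 5 measured members fell and 3 did not pass. Asl, argininosuccinate lyase, which releases arginine and fumarate, read, at 2 and then 8 months, 9.95 and 10.13 in the WT-labelled arrays, and 9.29 and 9.26 in the KO-labelled arrays. The values of other genes are given in the same order. Both KO-labelled pools were thus well below both WT-labelled pools, and the spread within either genotype was under 0.2. The difference was -0.65 at 2 months and -0.88 at 8 months, a mean of -0.77 (SE 0.08, limma adjusted p 4.7e-05) or 1.70-fold lower.

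Arg1, arginase, which splits arginine into urea and ornithine, read 10.90 and 11.01 in the WT-labelled arrays and 10.65 and 10.61 in the KO-labelled arrays. Its groups did not overlap either, and it fell by 0.32 (SE 0.08, limma adjusted p 0.018). The call was lost without the filter on dim genes and without the trend (adjusted p up to 0.12).

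The mitochondrial entry steps did not pass. Cps1, the carbamoyl phosphate synthetase that commits ammonia to the cycle, read 12.01 and 12.10 in the WT-labelled arrays and 11.82 and 11.81 in the KO-labelled arrays. Both KO-labelled arrays were lower, but the mean of -0.24 (SE 0.07) missed the threshold at a limma adjusted p of 0.059. It passed under 3 of 8 alternative settings, median centring, cyclic loess and genotype without age.

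Nags, which makes the allosteric activator of Cps1, read 7.28 and 7.48 in the WT-labelled arrays and 7.23 and 7.19 in the KO-labelled arrays. Otc, the X-linked ornithine transcarbamylase, read 8.63 and 8.76 in the WT-labelled arrays and 8.93 and 8.71 in the KO-labelled arrays. The Otc groups overlapped, since KO was 0.30 higher at 2 months and 0.05 lower at 8 months. Neither gene passed, with limma adjusted p-values of 0.28 for Nags and 0.44 for Otc.

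Among enzymes that feed nitrogen into the cycle, both alanine transaminases fell, and glutamate dehydrogenase Glud1 and the mitochondrial aspartate transaminase Got2 did not pass. The cytosolic aspartate transaminase Got1, no member here, fell and is described with the other pathway genes. Gpt, the cytosolic form that moves nitrogen from alanine to glutamate, read 8.68 and 8.52 in the WT-labelled arrays and 8.28 and 8.16 in the KO-labelled arrays. Gpt2, its mitochondrial counterpart, read 8.72 and 8.87 in the WT-labelled arrays and 8.35 and 8.26 in the KO-labelled arrays. Neither gene had overlapping groups. Gpt fell by 0.38 (SE 0.08, limma adjusted p 0.0080) and Gpt2 by 0.49 (SE 0.09, adjusted p 0.0025), or 1.30-fold and 1.40-fold.

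Glud1, the glutamate dehydrogenase that frees ammonia in mitochondria, read 10.83 and 10.84 in the WT-labelled arrays and 11.03 and 11.00 in the KO-labelled arrays. Got2, the mitochondrial aspartate transaminase, read 10.03 and 9.99 in the WT-labelled arrays and 10.17 and 10.10 in the KO-labelled arrays. Both were slightly higher in both KO-labelled arrays, by 0.18 and 0.13 on average, without passing (limma adjusted p 0.15 and 0.32). Got2 had 2 probe sets, and they gave nearly the same values.

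**Figure D2:**
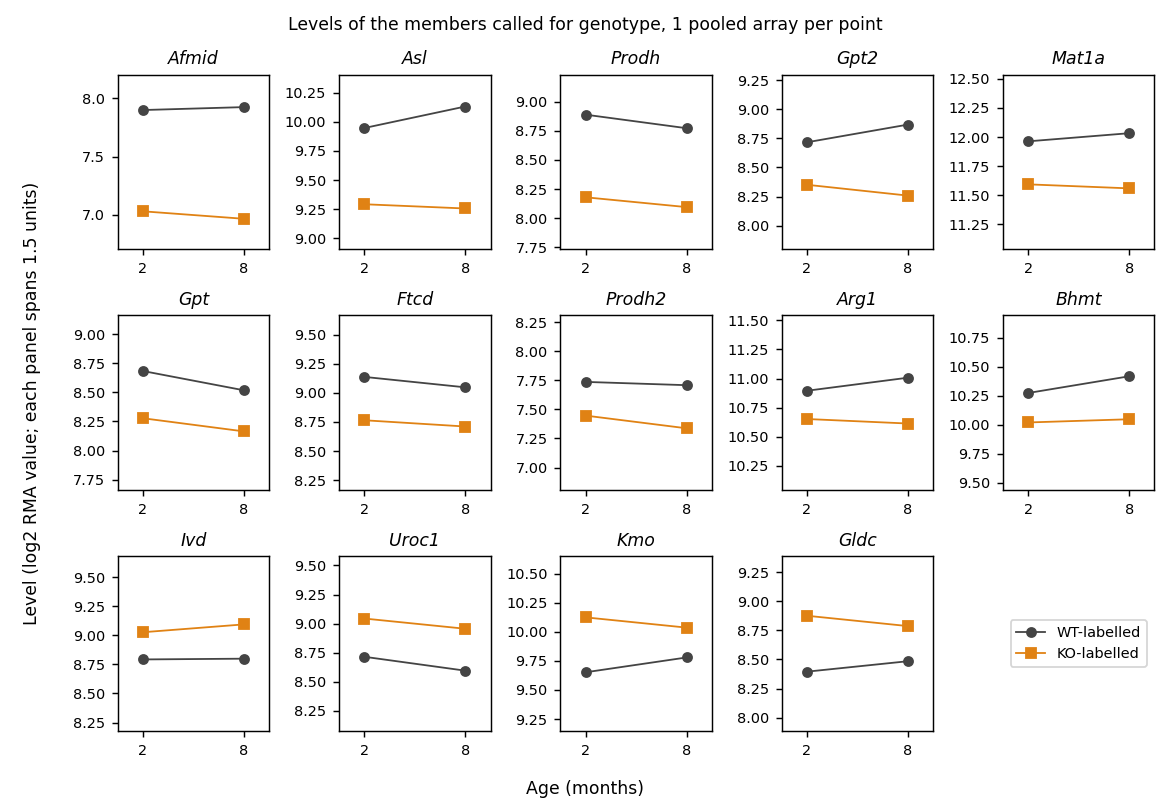
The panels plot the level (log2 RMA value) of the 14 members called for genotype against age in months, with circles for WT-labelled and squares for KO-labelled arrays, 1 pooled array per point, and each panel spans 1.5 units. In all 14 panels the lines of the genotypes stay apart, with WT above in the 10 members that fell and KO above in the 4 that rose. The members shown were picked by the genotype test on these same arrays, which favours lines that stay apart.

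Histidine breakdown, in which 4 consecutive enzymes carry histidine to glutamate, held 1 enzyme that rose, 1 that fell and 2 that did not pass. Hal, the histidase that starts the route, read 9.89 and 9.81 in the WT-labelled arrays and 9.87 and 9.83 in the KO-labelled arrays, with overlapping groups. Uroc1, the urocanate hydratase of the next step, read 8.72 and 8.60 in the WT-labelled arrays and 9.04 and 8.96 in the KO-labelled arrays. It rose by 0.34 (SE 0.08, limma adjusted p 0.012), with both KO-labelled arrays above both WT-labelled ones.

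Amdhd1, the imidazolonepropionase that follows, was 0.08 higher at both ages and did not pass (limma adjusted p 0.59). Ftcd, the bifunctional enzyme that passes the formimino group to folate, read 9.14 and 9.05 in the WT-labelled arrays and 8.76 and 8.71 in the KO-labelled arrays. It fell by 0.35 (SE 0.08, limma adjusted p 0.010), a size close to that of the rise of Uroc1.

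None of the 4 enzymes of tyrosine breakdown passed. Hpd, the dioxygenase that forms homogentisate, read 11.74 and 11.82 in the WT-labelled arrays and 11.65 and 11.58 in the KO-labelled arrays, a mean of -0.17 (limma adjusted p 0.20). Hgd, which opens the ring of homogentisate, and Fah, the last enzyme of the route, were lower by means of 0.10 and 0.11, with KO below WT at both ages. Gstz1, the isomerase between them, was at 0.05 at 2 months and -0.12 at 8 months, and its gene overlaps Pomt2 in the RefSeq table.

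Tryptophan breakdown held the lowest member of all. Afmid, the formamidase that makes kynurenine from formylkynurenine, read 7.90 and 7.93 in the WT-labelled arrays and 7.03 and 6.97 in the KO-labelled arrays. The genotypes were almost a unit apart and differed by less than 0.1 between ages within each genotype. The difference was -0.87 at 2 months and -0.96 at 8 months, a mean of -0.92 (SE 0.09, limma adjusted p 1.7e-05) or 1.89-fold lower.

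The Afmid gene overlaps the start of Tk1, the thymidine kinase gene, on RefSeq's GRCm38.p6 annotation. The Tk1 probe set, looked at because of that overlap after the Afmid value was seen, read 5.85 and 5.99 in the WT-labelled arrays and 5.04 and 4.97 in the KO-labelled arrays. It fell by 0.91 (SE 0.12, limma adjusted p 0.00022), so both genes of the overlapping pair were lower by a similar amount. Whether the probe sets share transcripts was not tested.

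Kmo, the hydroxylase that takes kynurenine onward to NAD precursors, moved the other way. It read 9.65 and 9.78 in the WT-labelled arrays and 10.12 and 10.04 in the KO-labelled arrays. It rose by 0.36 (SE 0.08, limma adjusted p 0.011), with 0.47 at 2 months and 0.26 at 8 months.

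The remaining tryptophan enzymes did not pass. Tdo2, the dioxygenase that opens the route, read 11.10 and 11.25 in the WT-labelled arrays and 11.09 and 11.01 in the KO-labelled arrays (limma adjusted p 0.37). Kynu and Haao, which act after Kmo, were higher by means of 0.13 and 0.08, with both KO-labelled arrays above both WT-labelled arrays in each gene.

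In proline breakdown both dehydrogenases fell. Prodh, the mitochondrial proline dehydrogenase, read 8.89 and 8.77 in the WT-labelled arrays and 8.18 and 8.10 in the KO-labelled arrays. It fell by 0.69 (SE 0.08, limma adjusted p 8.6e-05) or 1.62-fold, with nearly the same difference at the ages, -0.71 and -0.68.

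Prodh2, which oxidises hydroxyproline, read 7.74 and 7.71 in the WT-labelled arrays and 7.45 and 7.34 in the KO-labelled arrays. It fell by 0.33 (SE 0.09, limma adjusted p 0.026), a call that was lost without the filter on dim genes and without the trend (adjusted p up to 0.11). Aldh4a1, which acts after both dehydrogenases, was at 0.10 and 0.01, and its groups overlapped.

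The glycine cleavage system frees ammonia from glycine with a set of partner proteins, and its decarboxylase Gldc was the member that rose most. Gldc read 8.40 and 8.49 in the WT-labelled arrays and 8.88 and 8.79 in the KO-labelled arrays, so its groups did not overlap. It rose by 0.39 (SE 0.08, limma adjusted p 0.0081), with 0.48 at 2 months and 0.30 at 8 months.

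Of the partner proteins of Gldc, Amt and Gcsh gave means close to 0 and Dld did not. Amt, the aminomethyltransferase, was at 0.01 and -0.03 at 2 and 8 months, and Gcsh, the lipoyl carrier protein, was at -0.01 and -0.05. Neither passed (limma adjusted p 0.96 and 0.90). Dld, the dihydrolipoamide dehydrogenase that also serves other enzyme complexes and is no member here, read 8.06 and 8.20 in the WT-labelled arrays and 8.58 and 8.32 in the KO-labelled arrays. Its groups did not overlap and its mean difference was 0.32, which did not pass (SE 0.10, limma adjusted p 0.056). Dld did pass with cyclic loess or with quantile normalization applied again, and under none of the other 6 alternatives. Agxt, which removes glyoxylate by transamination to glycine, read 7.64 and 7.63 in the WT-labelled arrays and 7.85 and 7.66 in the KO-labelled arrays (adjusted p 0.45).

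Among methionine enzymes, Mat1a and Bhmt fell. Mat1a, the liver form of the enzyme that makes S-adenosylmethionine, read 11.96 and 12.03 in the WT-labelled arrays and 11.59 and 11.56 in the KO-labelled arrays. It fell by 0.42 (SE 0.07, limma adjusted p 0.0026) or 1.34-fold, with no overlap of groups.

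Bhmt remethylates homocysteine with betaine, and its 3 probe sets disagreed. Their mean read 10.27 and 10.42 in the WT-labelled arrays and 10.02 and 10.05 in the KO-labelled arrays. It fell by 0.31 (SE 0.08, limma adjusted p 0.019). The difference came mostly from 1 probe set, at -0.66 and -0.75, while the others were at -0.05 at 2 months and -0.18 at 8 months. With the brightest probe set alone, the difference was -0.11 and did not pass (adjusted p 0.38).

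The other methionine enzymes did not pass, and they did not share a direction. Gnmt, which consumes S-adenosylmethionine, read 11.19 and 11.21 in the WT-labelled arrays and 11.00 and 10.92 in the KO-labelled arrays, just outside the threshold (limma adjusted p 0.056). Cbs, which starts transsulfuration, read 9.44 and 9.42 in the WT-labelled arrays and 9.70 and 9.65 in the KO-labelled arrays (adjusted p 0.059). Gnmt was thus lower and Cbs higher in both KO-labelled arrays, and each passed under some alternatives, Gnmt under 4 of 8 and Cbs under 3 of 8.

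Cth, the lyase that yields cysteine, differed from the rest in that 1 array stood apart. It read 10.16 in the younger WT-labelled array, against 10.70 in the older one and 10.60 and 10.59 in the KO-labelled arrays. KO minus WT was therefore 0.44 at 2 months and -0.11 at 8 months (limma adjusted p 0.38).

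Of the branched-chain and lysine enzymes, 1 of 6 rose and 5 did not pass. Ivd, which dehydrogenates isovaleryl-CoA from leucine, read 8.79 and 8.80 in the WT-labelled arrays and 9.03 and 9.09 in the KO-labelled arrays. It rose by 0.26 (SE 0.08, limma adjusted p 0.047), the call nearest the threshold, which held under 4 of 8 alternatives.

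Mccc1 and Mccc2, the subunits of the carboxylase that acts after Ivd, were at 0.11 and 0.00, and at 0.08 and 0.05. Bckdha, the alpha subunit of the branched-chain ketoacid dehydrogenase, was lower by 0.17 and 0.18 at the ages, while the beta subunit Bckdhb was at -0.05 and 0.01. Aass, which starts lysine breakdown, was at 0.03 and -0.20, and its groups overlapped.

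The promoters of members that moved are shown so that pairs of opposite direction can be compared: Gldc and Kmo as the highest members, Prodh as a member at the other extreme, and Ftcd and Uroc1 from histidine breakdown. Prodh, Ftcd and Uroc1 were chosen after their values were seen. Each sequence is the 250 bases before the RefSeq start in GRCm38.p6, and capitals mark matches on either strand to any of 5 motifs. They were the cAMP response element TGACGTCA and its shorter core TGACG, which lies within the full element. The glucocorticoid receptor was represented by the core AGAACA and C/EBP by TTGCNNAA. The TATA box was searched as TATAAA. The window of Afmid lies inside Tk1 and is not printed, and Asl had no entry.
Gldc, chr19:30175442-30175691, minus strand: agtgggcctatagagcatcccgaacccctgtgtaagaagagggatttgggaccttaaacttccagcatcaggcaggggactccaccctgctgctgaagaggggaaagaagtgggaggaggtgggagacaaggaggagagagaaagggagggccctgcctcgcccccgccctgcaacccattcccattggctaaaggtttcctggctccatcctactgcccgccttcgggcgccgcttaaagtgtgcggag
Kmo, chr1:175631943-175632192, plus strand: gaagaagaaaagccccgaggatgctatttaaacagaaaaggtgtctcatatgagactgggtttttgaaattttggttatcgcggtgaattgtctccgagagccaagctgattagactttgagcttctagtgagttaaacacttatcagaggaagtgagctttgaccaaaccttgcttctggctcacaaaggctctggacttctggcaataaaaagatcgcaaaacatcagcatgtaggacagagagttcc
Prodh, chr16:18089191-18089440, minus strand: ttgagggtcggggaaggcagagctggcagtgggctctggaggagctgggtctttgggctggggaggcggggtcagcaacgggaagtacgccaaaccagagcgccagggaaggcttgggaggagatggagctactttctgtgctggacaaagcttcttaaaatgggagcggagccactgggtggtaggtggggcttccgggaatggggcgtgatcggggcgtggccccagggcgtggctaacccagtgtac
Ftcd, chr10:76575398-76575647, plus strand: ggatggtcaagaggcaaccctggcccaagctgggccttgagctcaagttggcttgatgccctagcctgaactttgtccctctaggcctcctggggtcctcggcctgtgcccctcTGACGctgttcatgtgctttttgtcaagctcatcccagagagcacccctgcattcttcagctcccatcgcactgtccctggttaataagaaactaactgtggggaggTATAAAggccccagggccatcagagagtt
Uroc1, chr6:90333039-90333288, plus strand: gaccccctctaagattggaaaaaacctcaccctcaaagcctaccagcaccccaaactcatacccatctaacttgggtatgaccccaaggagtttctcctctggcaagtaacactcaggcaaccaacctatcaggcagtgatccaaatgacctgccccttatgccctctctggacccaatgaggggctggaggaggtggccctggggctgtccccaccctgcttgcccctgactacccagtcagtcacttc

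Of these windows, that of Ftcd held matches, TGACG starting 136 bases and TATAAA 29 bases before the start. The others held none of these letters, which says nothing of binding by any factor. Of 40 measured members, 33 had an entry, with 35 windows. TGACG was in 3 of those windows (8.57%) against 17.8% of 32851 windows of all genes, and TGACGTCA was in 0 against 1.55%. AGAACA was in 3 windows (8.57%) against 16.1%, TTGCNNAA in 4 (11.4%) against 9.56% and TATAAA in 5 (14.3%) against 12.4%.

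The genotype difference had the same sign at both ages in 32 members and opposite signs in 8. Signs were opposite in 3959 of 11963 genes tested and in 524 of the 1994 genes above the 90th percentile of the level. The difference was lower at 8 months than at 2 months in 31 of 40 members (77.5%). That share was 71.7% among the genes above the 90th percentile of the level and 54.1% over all genes tested. The count of 31 depended on how the arrays were scaled to each other. It was 25 with arrays centred on their medians, 22 under cyclic loess and 15 when quantile normalization was applied again, so no direction of the shift between the ages held across scalings. The members' medians moved with it, to -0.10 at 2 months and -0.07 at 8 months under the repeated quantile normalization. The larger differences did not turn, and Afmid, Asl and Prodh passed under all 8 alternative settings.

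**Figure D3:**
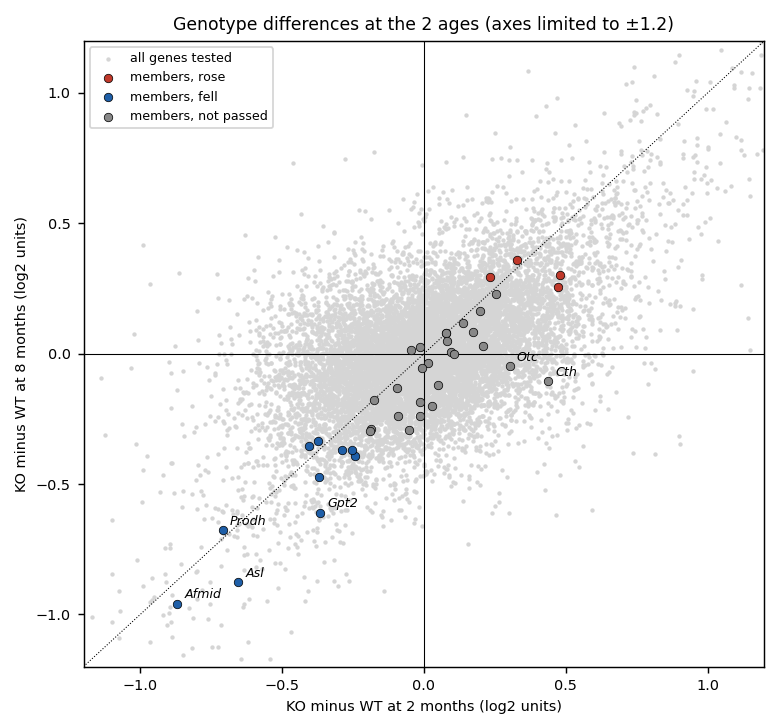
KO minus WT at 2 months (horizontal) is plotted against KO minus WT at 8 months (vertical), both in log2 units, for all genes tested (grey) and the measured members (coloured by call); axes are limited to 1.2 units either way and the dotted line marks equal differences. Afmid, Asl and Prodh sit far down the line, and Cth and Otc, at 0.44 and 0.30 at 2 months, are just below 0 at 8 months.

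Age itself moved no member past the test. In the additive limma model 0 of 40 members passed for 8 against 2 months, with 1, Cth, at an unadjusted p under 0.05 (0.029). Over all genes 0% rose and 0.00836% fell, which is 1 gene, and the alternative settings called 0 to 3 genes. No member was 1.5-fold apart between the ages in either genotype, against 0.209% of genes higher and 0.443% lower at 8 months in the WT-labelled arrays and 0.376% and 0.276% in the KO-labelled arrays.

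The direction of the small age differences also rested on the scaling. At 8 months 23 of 40 members (57.5%) were higher than at 2 months in the WT-labelled arrays and 4 of 40 (10%) in the KO-labelled arrays. Over all genes tested these shares were 50.4% and 41.9%. Among the genes above the 90th percentile of level they were 60% and 22.7%. The members' counts became 30 and 19 under median centring, 17 and 20 under repeated quantile normalization and 19 and 21 under cyclic loess. Cth, higher by 0.54 in the WT-labelled arrays and lower by 0.01 in the KO-labelled ones, and Otc, at 0.13 and -0.22, were farthest from equal.

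**Figure D4:**
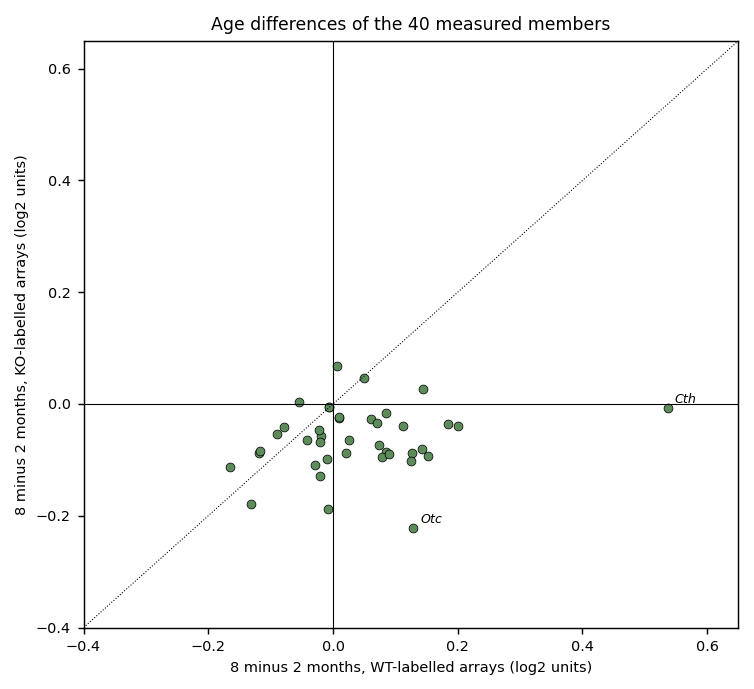
The 40 measured members are plotted by 8 minus 2 months in the WT-labelled arrays (horizontal) and in the KO-labelled arrays (vertical), in log2 units, with a dotted line where both are equal. On the deposited scale 4 points lie above 0 on the vertical axis, a count that rose to 19 to 21 under other scalings. On that deposited scale 41.9% of all genes tested and 22.7% of those above the 90th percentile of level lie above 0. Cth stands alone to the right at 0.54.

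Other genes of amino acid breakdown were called at 13.4%, against 11.1% of all genes and 20.4% of the genes above the 90th percentile of level, where most of them lie. Of a list of 79, 71 had a probe set and 67 were bright enough to test, of which 6 fell, 3 rose and 58 did not pass. Their medians were 0.02 at 2 months and -0.05 at 8 months. Got1, the cytosolic partner of Got2, read 9.76 and 10.01 in the WT-labelled arrays and 9.31 and 9.27 in the KO-labelled arrays. It fell by 0.59 (limma adjusted p 0.00062). The difference between the changes of cytosolic Got1 and mitochondrial Got2 was not tested.

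Hykk, the hydroxylysine kinase, fell by 0.56, the selenophosphate synthetase Sephs2 by 0.35, Bhmt2, a homocysteine methyltransferase related to Bhmt, by 0.32 and Slc25a13, the carrier that exports aspartate from mitochondria for the urea cycle, by 0.30. Hoga1, an aldolase of hydroxyproline breakdown, fell by 0.28. The genes that rose were Qprt by 0.36, which leads from the tryptophan route to NAD, the glycolate oxidase Hao1 by 0.34 and the glutamate carrier Slc25a22 by 0.33. Of these 9 genes, Got1 and Hykk passed under all 8 alternatives and the other 7 were lost without the intensity trend (limma adjusted p 0.082 to 0.16). Tat, the tyrosine transaminase known for its induction by glucocorticoids, read 12.01 and 12.17 in the WT-labelled arrays and 12.16 and 12.23 in the KO-labelled arrays (limma adjusted p 0.43). The pericentral glutamine synthetase Glul and the ornithine transaminase Oat did not pass either, with means of 0.11 and -0.05. Asns, the asparagine synthetase, read 4.52 and 6.18 in the WT-labelled arrays and 4.59 and 4.73 in the KO-labelled arrays. KO minus WT was thus 0.07 at 2 months and -1.46 at 8 months, with the older WT-labelled array standing apart. It did not pass for genotype (limma adjusted p 0.10).

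Among 18 measured regulators of liver amino acid and fasting metabolism, 5 fell (27.8%), 1 rose (5.56%) and 12 did not pass. Over all genes tested 4.26% fell and 6.81% rose. Gcgr, the glucagon receptor, read 8.76 and 8.77 in the WT-labelled arrays and 8.18 and 8.21 in the KO-labelled arrays. It fell by 0.57 (limma adjusted p 0.00045). Foxa2, the CREB coactivator Crtc2, Foxo1 and Creb3l3 fell by 0.49, 0.43, 0.41 and 0.32. Atf4, the factor of the amino acid response, rose by 0.51 (limma adjusted p 0.0062). Gcgr and Atf4 passed under all 8 alternatives, and the other 4 calls were lost without the filter on dim genes (limma adjusted p 0.068 to 0.074). Foxo1 and Creb3l3 were also lost without the intensity trend (limma adjusted p 0.062 and 0.11).

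Other features of the arrays moved with the same labels. In whole liver RNA fewer cells of a type and less RNA per cell cannot be told apart. The marker counts below stand beside 4.26% of all genes tested that fell and 6.81% that rose. Each summed level takes in all listed markers with a probe set, also those below the filter that were not tested. Of 9 tested Kupffer cell and macrophage markers 3 rose and 0 fell, with a log2 summed level of 8.49 to 8.69 in WT-labelled and 8.87 to 8.98 in KO-labelled arrays, while the defining marker Clec4f read 5.86 and 5.82 against 5.82 and 5.88. Of 10 stellate cell markers 4 fell and 1 rose (10.24 to 10.29 against 10.19 to 10.23). Acta2 fell most, with KO minus WT at -1.86 at 2 months and -2.01 at 8 months (limma adjusted p 2.4e-07). Col1a1, Col1a2 and Col3a1 fell, with mean differences of -0.56, -0.72 and -0.50. Reln rose, with a mean of 0.29, and Lrat, Des, Rgs5, Pdgfrb and Dcn did not pass. The summed level shows little of these falls, since it weighs bright markers most and Dcn, at 9.34 to 9.46, was the brightest. Of 8 endothelial markers 1 rose (8.82 to 8.85 against 8.82 to 8.93), and of 10 pericentral hepatocyte markers 1 rose and 2 fell (13.28 to 13.36 against 13.18 to 13.27). Of 3 erythroid markers 1, Alas2, rose (6.27 to 6.29 against 6.72 to 6.73). Alas2, the brightest of them, rose by 0.64, while Slc4a1 and Klf1 did not pass, with means of 0.22 and -0.41. Of 3 tested cholangiocyte markers 0 passed (5.82 to 5.94 against 5.75 to 5.79). Of 2 tested kidney, pancreas and gut markers 1, Fabp2, fell (8.03 to 8.04 against 7.49 to 7.76). Of 5 lymphocyte and neutrophil markers 4 were below the filter and the other did not pass (5.32 to 5.42 against 5.20 to 5.33). The stress-responsive Fos was higher by 3.70 and the glucocorticoid-induced Fkbp5 lower by 2.72 in the KO-labelled arrays on average. Fos and Fkbp5 are on none of the lists used here and were named after their values were seen. The part of these differences in the members' values was not tested.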

How the data were processed

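The authors deposited log2 values made with RMA in Affymetrix Expression Console 1.0, per the submitters' processing notes. RMA corrects background, quantile normalizes and summarises probes, and hides any change in total RNA. Base 2 is inferred from RMA. No source used here names the build or says which arrays were normalized as a set. Values ran from 0.89 to 13.3 with array medians of 3.52 to 3.58. An array has no read depth, and the 4 arrays limit the precision.

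Of 35556 probe sets, 21789 had 1 gene symbol, 1621 had several and 12146 none in the platform table. Symbols were looked up by gene identifier in the RefSeq table of GRCm38.p6, which changed 0, and 91 had no match. Probe sets of a gene were averaged. Genes above the 40th percentile of the mean level, 3.34, were tested: limma 3.58.1 in R 4.3.3, an additive model of genotype and age, eBayes with an intensity trend, prior of 11.3 degrees of freedom, Benjamini-Hochberg over 11963 genes, adjusted p 0.05. The fit was run on simulated arrays whose noise was drawn from the fitted model itself. Such a run cannot show whether that noise matches the spread between pools. An exact permutation of 2 arrays against 2 cannot go below p = 0.333. The members and lists were chosen with earlier results of these data known, and all 45 members are named. Of the other pathway genes, the 5 highest and 5 lowest that passed are named, with Tat, Glul and Oat, and of the regulators those that passed and Sirt6. Dld and Asns are named besides, Asns after its values were seen. Alternatives changed the filter, trend, scaling, age term, probe set choice and fold. Promoter sequences are from RefSeq, GRCm38.p6.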

Additional observations from a re-analysis of the deposited data

Results flagged for a closer look

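In 8 members KO minus WT had opposite signs at 2 and 8 months. Such opposite signs were also seen in 3959 of 11963 genes tested and in 524 of the 1994 genes above the 90th percentile of level. The difference at 8 months less that at 2 months was -0.54 for Cth, -0.35 for Otc, -0.23 for Aass, -0.17 for Gstz1, -0.11 for Mccc1, -0.049 for Amt, 0.059 for Bckdhb and 0.038 for Hal. With 1 array per group this was not tested. In Cth and Otc alone did either age's difference exceed 0.25 in size, 0.44 and 0.30 at 2 months.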

How the results depend on the processing

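No member that passed for genotype changed direction under any of the 8 alternatives to the fit. Changing the filter, the trend or the age term leaves the difference itself as it was. Direction could therefore turn only with the scaling or the choice of probe set. Afmid, Asl, Prodh and Gpt2 passed under all 8 alternatives. Without the intensity trend 0 members rose and 4 fell, other pathway genes gave 0 and 2, and 846 genes were called in all. Without the filter on dim genes 752 genes were called, and other pathway genes gave 1 that rose and 3 that fell. Under repeated quantile normalization other pathway genes gave 5 and 10, and under cyclic loess 5 rose. Elsewhere the members gave 3 to 6 that rose and 7 to 13 that fell. The calls over all genes varied as well, so these counts do not stand alone. They ran from 752 of 19938 genes without the filter to 1778 of 11963 under cyclic loess, against 1325 of 11963 in the fit reported. Under repeated quantile normalization they were 1682 of 11963. The share of genotype calls that were higher was 61.5% on the deposited scale, 45.8% under median centring, 51.1% under repeated quantile normalization and 53.8% under cyclic loess. For age 1 gene was called, against 0 without the filter, with the 25th percentile filter, without the trend, under median centring and for age alone, 2 with the brightest probe set and 3 under repeated quantile normalization and under cyclic loess (limma, 431 genes at an unadjusted p under 0.05 in the fit reported). At 2-fold 0 members were lower at both ages, and at the looser limit tried 7 were lower and 1 was higher. The shares over all genes at these limits are not given here, so the counts have no background. No paired analysis was possible because the labels give no replicate numbers and each group is 1 pooled array. The spread between animals or pools of a group cannot be measured here.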
